A study of Mus musculus with 2 samples.

Results

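Dendritic cell identity genes were examined in M-MDSCs, the monocytic class of myeloid-derived suppressor cells, taken from tumours of mice on a normal-salt diet (NSD) or a high-salt diet (HSD). The set held 10 genes that mark or specify conventional or plasmacytoid dendritic cells, namely Flt3, Zbtb46, Batf3, Xcr1, Clec9a, Cd209a, Siglech, Ccr9, Id2 and Tcf4, of 20653 genes that could be named on the arrays. Members were all non-control probes whose RefSeq transcript belonged to 1 of these genes, which gave 15 probes. Female BABL/c mice, as the labels spell the strain, received 1000000 4T1 cells, a mammary carcinoma line, under the skin after a day of starvation. They then had 0.4% NaCl in the chow with tap water (NSD), or 4% NaCl in the chow with 1% NaCl in the water (HSD), for 16 days. No genetic change is given for either group. Mice of this strain were obtained at an age of 6 to 8 weeks. Tumour cells in suspension were labelled with antibody to GR-1 or Ly-6G and retained with magnetic beads on a column, and the retained M-MDSC fraction was held to be CD11b+Ly-6C+ and of high purity. Cells of a diet group were mixed in equal numbers, and each pool was read on 1 single-colour Agilent array. There was thus 1 value per probe and diet, no spread between mice, and no test of the diet.

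Dendritic cells take up antigen and present it to T cells. Conventional dendritic cells (cDCs) depend on the growth factor receptor FLT3 and fall into a cDC1 class, known for presenting antigen of dead tumour cells to CD8+ T cells, and a cDC2 class, known for priming CD4+ T cells. Plasmacytoid dendritic cells (pDCs) make type I interferon in response to viral nucleic acids. The choice between these fates turns in part on a pair of opposed factors, the E protein E2-2 (encoded by Tcf4), which maintains pDCs, and the inhibitor ID2, which binds E proteins and favours cDCs. M-MDSCs are immature cells that can give rise to macrophages or dendritic cells, and the arrays compare their RNA between the salt diets.

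Of 39413 probes with a value on both arrays, Agilent's software called 71.9% well above background under NSD and 72.4% under HSD, and no spot was saturated. The cells carried the myeloid marker Itgam (CD11b), at 31564 intensity units under NSD and 31043 under HSD. All 10 neutrophil markers with a named probe were well above background on both arrays, with summed signals of 343619 and 334056 units and a median log2 fold change of 0.074 that turned negative without scaling and with quantile normalization, cyclic loess or the deposited values. Mpo, a peroxidase, was the one past 1.5-fold (−0.92), Cxcr2 had 0.51, and the brightest, Camp, had 61817 and 59919 units. Genes known from neutrophils were thus expressed in both pools labelled as M-MDSCs, and from which cells was not tested. Ly6c2, Ly6g, Itgae, Ifi205 and Cd68 were not analysed here, since no probe was named for them. The defining markers of dendritic cells were present only in part. Itgax (CD11c) was measured at 172.9 and 266.7 units, whereas the cDC1 receptor gene Xcr1 did not stand well above background on either array. Id2 and Tcf4 are also expressed outside dendritic cells.

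Among the identity genes, Id2, Batf3 and Ccr9 had lower signals under HSD, Cd209a was measured only under NSD, and Clec9a was higher under HSD. A fold change is given here after dividing each array by the 75th percentile of its probes, 252.2 units (NSD) and 232.9 units (HSD), as HSD over NSD. A gene was usable when its probe stood well above background under NSD, HSD or both, and 9 of the 10 genes did. Of these 9, 1 was at least 1.5-fold higher (Clec9a) and 4 were at least 1.5-fold lower (Id2, Batf3, Ccr9, Cd209a), beside 9.86% and 10.3% of all 16312 usable genes. These shares of all genes also stand beside the 1.5-fold counts of the other gene lists below. With the normexp background correction, which adds an offset of 50 units, Id2 alone of the members was past 1.5-fold. At 2-fold there were 0 higher and 3 lower members, beside 2.62% and 4.17% of all genes. The median log2 fold change of the 9 genes was −0.30, against 0.045 for all genes. Cd209a entered these figures only through the array where it was high, and the median of the 8 members measured on both arrays was −0.12. Without scaling between the arrays the median of all genes moved by −0.11, and the share of higher among all calls was 32.6% in place of 48.9%, or 38.5% with cyclic loess. In pools of RNA, fewer cells of a type and less RNA per cell cannot be told apart.

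**Figure D1:**
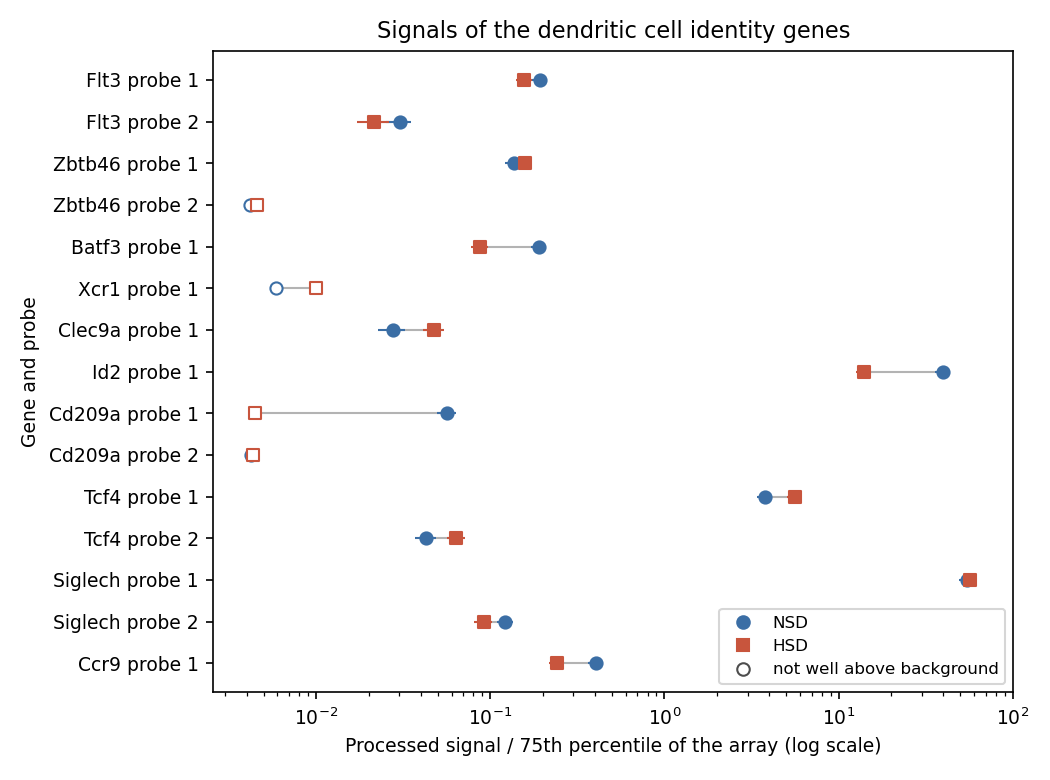
Processed signal of each of the 15 probes of the dendritic cell identity genes, divided by the 75th percentile of its array (log axis), in the NSD (circles) and HSD (squares) groups. Bars are the error of the signal given by the scanner software, open symbols were not well above background, and levels of different probes are not comparable. Id2 and Batf3 show wide gaps between the diets, Cd209a is open under HSD, and Siglech probe 1 is alike in both.

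Flt3 and Zbtb46, which cDCs share, differed by less than 1.5-fold between the diets. Flt3, the receptor that dendritic cell precursors need, had a signal of 48.7 ± 4.97 units under NSD and 36.6 ± 3.80 under HSD. The ± here and below is the error that the scanner software gives for a spot and holds no variation between mice. The log2 fold change was −0.30 ± 0.21, and its dimmer probe, at 7.63 and 5.04 units, gave −0.48 ± 0.38. Both probes of Flt3 were thus lower under HSD, by less than 1.5-fold. Zbtb46, a transcription factor that separates cDCs from other myeloid cells, had 34.4 ± 3.57 units under NSD and 36.8 ± 3.81 under HSD (log2 fold change 0.21 ± 0.21). The second Zbtb46 probe, at 1.05 and 1.07 units, did not stand well above background on either array. Of 8 other genes of cDCs, 1 was higher and 1 lower by at least 1.5-fold, and the median log2 fold change was 0.25. The higher one was Itgax, an integrin chain (log2 fold change 0.74), and the lower one was Jaml, an adhesion molecule, which had 7758 and 4019 units (−0.83). Cd24a, a surface glycoprotein, had 16720 and 18953 units (0.30).

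Members of the cDC1 programme went in different directions. Batf3, the AP-1 family factor that cDC1s require, had 47.9 ± 4.89 units under NSD and 20.4 ± 2.25 under HSD, a log2 fold change of −1.12 ± 0.22. The difference, 2.17-fold, was larger than the software's error, and the spot lay above its local background on both arrays (67.5 against 18 units of raw brightness under NSD, 38 against 20 under HSD). Clec9a, the receptor by which cDC1s recognise dead cells, was dim. It had 6.93 ± 1.25 units under NSD and 11.1 ± 1.51 under HSD, a log2 fold change of 0.80 ± 0.32. At such signals spots of the same probe differed with an SD of 0.37 (NSD) and 0.27 (HSD) on the log2 scale, and 1 spot per array measured Clec9a. Xcr1, the receptor for the chemokine XCL1, had 1.48 and 2.33 units and no fold change can be given. Its ligand gene Xcl1 was measured only under HSD, at 6.65 units, which makes it at least 1.56-fold higher. This bound was under 1.5-fold with normexp, without scaling, with quantile normalization, with cyclic loess and with the deposited values.

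Among 9 usable cDC1 genes outside the set, 1 was at least 1.5-fold higher and 2 were at least 1.5-fold lower, and the median log2 fold change was 0.13. Cadm1, an adhesion molecule of cDC1s, had 162.2 and 26.7 units (log2 fold change −2.49), and Rab7b, a small GTPase of endosomes, had 1010 and 556 (−0.75). Nfil3, a transcription factor needed for cDC1 precursors, was the higher one (0.61), and it stayed under 1.5-fold without scaling and with cyclic loess, among other settings. Wdfy4, required for cross-presentation, had 4666 and 3272 units (−0.40). Irf8, the factor on which cDC1s depend, was named outside the rule after its value was seen and had 1275.5 and 1249.8 units (0.085). Tlr3 and Tlr11 were not well above background on either array. Of 5 partners and relatives of BATF3, Batf2 was lower (−1.65) and so was Junb (−0.68), while Batf, Jun and Jund differed by less than 1.5-fold. Batf2 is also known as an interferon-induced gene.

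Id2 showed the largest difference among members measured on both arrays. Its signal was 10033 ± 1003 units under NSD and 3269.5 ± 327.0 under HSD, a log2 fold change of −1.50 ± 0.20, or 2.83-fold lower. This was the only member past 1.5-fold under all 11 other settings tried, with values from −1.62 to −1.48. Tcf4 went the other way. Its brighter probe had 955.6 ± 95.6 units under NSD and 1303.0 ± 130.3 under HSD (log2 fold change 0.56 ± 0.20), and the dimmer one had 10.8 and 14.9 units (0.57 ± 0.26). Both Tcf4 probes were higher under HSD and lay just under 1.5-fold, at 1.48 and 1.49. Relative to Id2, Tcf4 was higher by 2.07 ± 0.29 on the log2 scale under HSD. This difference does not depend on a scaling factor, and it was between 2.04 and 2.13 under the other settings.

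Of the 5 other Id and E protein genes, 1 had a higher signal under HSD and 4 had a lower one. By at least 1.5-fold, 1 was higher and 0 were lower. Id1, an inhibitor of the same family, was higher under HSD, at 949.8 and 1706.5 units (log2 fold change 0.96). Id3 had 316.6 and 227.4 units (−0.36). Id4 was measured only under NSD, at 6.23 units, and was at least 1.31-fold lower. The E protein genes Tcf12 and Tcf3 had log2 fold changes of −0.38 and −0.047. Tcf4 was thus the one E protein gene of these that was higher, although none of them passed 1.5-fold.

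**Figure D2:**
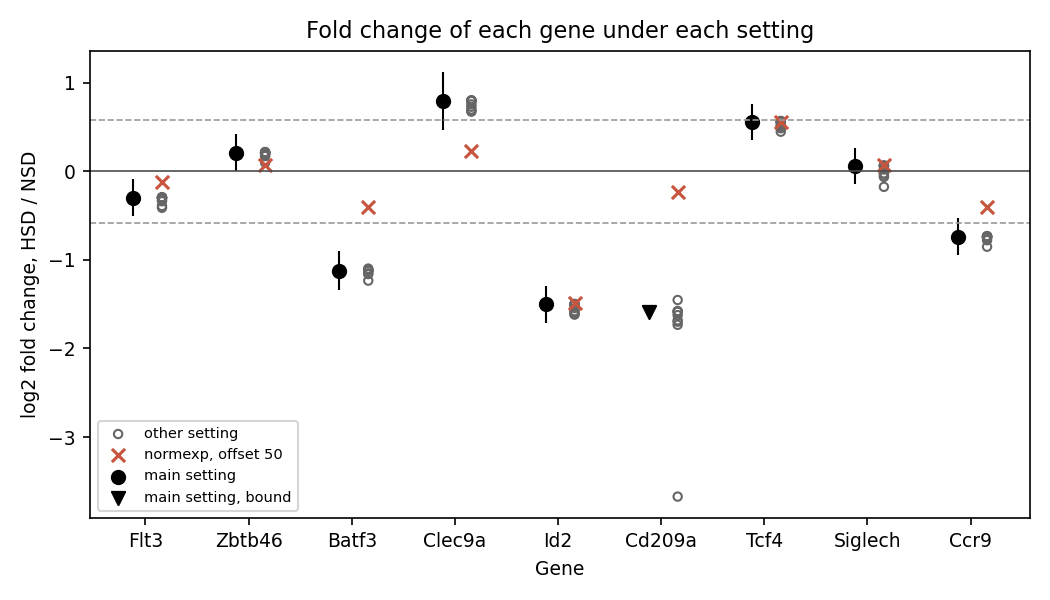
Log2 fold change (HSD over NSD) of the 9 identity genes with a usable probe. Filled circles with bars are the values and the software's error in the main setting, the triangle is a bound, open circles are the other settings, crosses are the normexp background correction, and dashed lines mark 1.5-fold. Id2 keeps its value in all settings, while Batf3, Clec9a, Cd209a and Ccr9 move within 1.5-fold with normexp.

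Of the pDC genes in the set, Ccr9 was lower and the bright Siglech probe differed by less than the software's error. Siglech, a sialic acid-binding receptor by which mouse pDCs are recognised, had a bright probe with 13705 ± 1371 units under NSD and 13214 ± 1321 under HSD. Its log2 fold change was 0.062 ± 0.20, and the sign turned without scaling, with quantile normalization or cyclic loess, and with the authors' deposited values. The second Siglech probe had 30.7 ± 3.28 and 21.3 ± 2.42 units, a log2 fold change of −0.41 ± 0.22. The probes of Siglech therefore differed in sign, within or near 2 times the error. Both were named by the same RefSeq transcript although their signals lay far apart. Which of them better reports Siglech RNA was not tested. Ccr9, a chemokine receptor of pDCs and of gut-homing lymphocytes, had 101.8 ± 10.2 units under NSD and 56.4 ± 5.71 under HSD. This was 1.67-fold lower (log2 fold change −0.74 ± 0.21). Its ligand gene Ccl25, at 112.2 and 108.8 units (0.071), differed by less than that error.

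Among 12 usable pDC genes outside the set, 0 were at least 1.5-fold higher and 4 were at least 1.5-fold lower, with a median log2 fold change of −0.24. Irf7, which drives interferon production in pDCs, had 373.1 and 57.0 units (log2 fold change −2.60), and Bst2, a surface marker of mouse pDCs, had 1363 and 270.5 (−2.22). Both are also induced by interferon in many cell types. Klk1, a kallikrein, had a log2 fold change of −1.13, and Smim5, seen only under NSD, was lower by 1.57-fold or more. After background correction by normexp, 2 of the 11 then usable were lower and the median was 0.0057. The pDC transcription factor gene Spib had 1746 and 1586 units (−0.025).

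Cd209a, a lectin of the DC-SIGN family found on cDC2s and on dendritic cells derived from monocytes, was detected under NSD only. Its brighter probe had 14.3 ± 1.73 units there and 1.03 ± 0.95 under HSD, where the spot was no brighter than its local background (19 and 19 units of raw brightness). The lowest signal well above background on the HSD array was 4.39 units, which makes Cd209a at least 3.0-fold lower. The other probe, at 1.07 and 1.01 units, did not stand well above background on either array. Of its 6 paralogs, Cd209b, Cd209c and Cd209e were likewise not detected. Cd209d had 40.4 and 35.3 units (log2 fold change −0.081), Cd209f had 12.9 and 8.90 (−0.42) and Cd209g had 11.2 and 11.1 (0.100), all within 1.5-fold. Probes of such near relatives can share target RNA, which was not tested.

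Of 12 cDC2 genes outside the set, 2 were higher and 2 lower by at least 1.5-fold, and the median log2 fold change was 0.048, which turned negative without scaling (−0.066) and with cyclic loess (−0.015). The lower genes were lectins. Clec10a had 174.4 and 47.2 units (log2 fold change −1.77) and Clec4a4 had 120.8 and 55.2 (−1.02). The higher genes were Irf4, a factor that cDC2s need, at 83.1 and 131.6 units (0.78), and the fractalkine receptor gene Cx3cr1, at 118.9 and 187.9 (0.78). Sirpa, a surface marker of cDC2s, had 16852 and 15481 units (−0.0081). Of 12 usable genes of dendritic cell maturation, 0 were at least 1.5-fold higher and 1 was lower, beside 9.86% and 10.3% of all usable genes. The lower one was the hydrolase gene Nudt17, which was detected under NSD only. Ccl17, a chemokine, and Socs2, a feedback inhibitor, had log2 fold changes of 0.42 and 0.36, and Cd80, a costimulatory ligand, had 0.21. Among ligands, Flt3l, the growth factor that binds FLT3, had 639.0 and 507.0 units (−0.22) and Kitl had −0.14, while Csf2 did not stand well above background on either array.

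**Figure D3:**
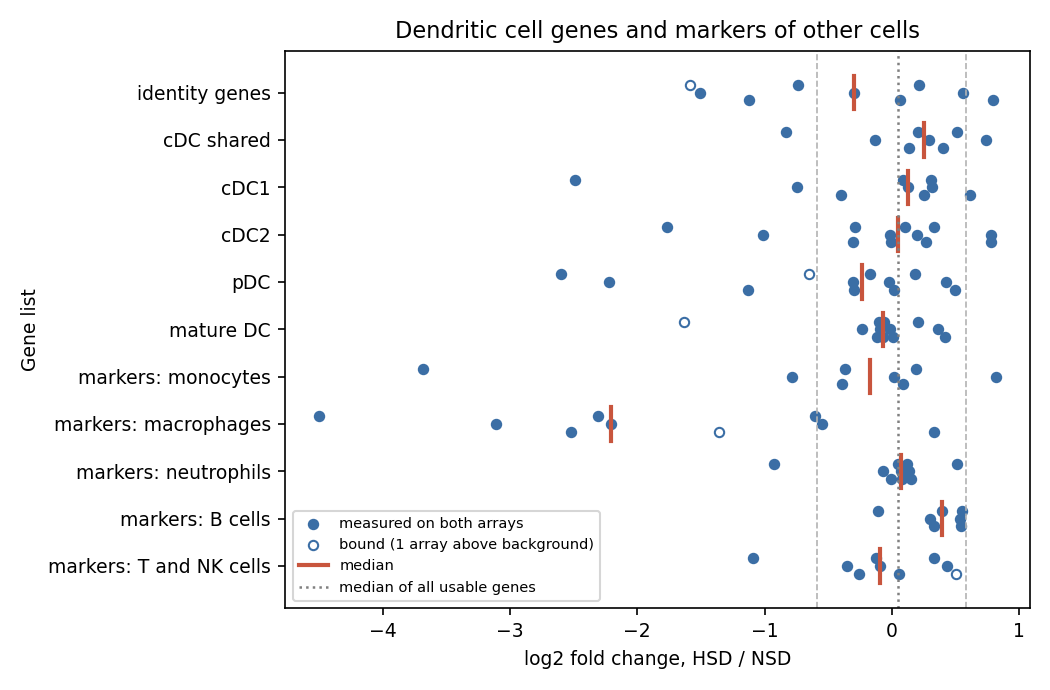
Log2 fold change (HSD over NSD, x axis) of the usable genes of each list, with the identity genes in the top row. Points are genes, open points are bounds, red bars are list medians, the dotted line is the median of all usable genes and dashed lines mark 1.5-fold. The macrophage markers have a median of −2.21 and the B cell markers one of 0.40, and the lists of dendritic cells lie between them.

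Markers of other cell types differed between the pools as well. Of 10 macrophage markers 9 had a named probe, 8 of them measured on both arrays and C1qa under NSD only, and 7 of the 9 were at least 1.5-fold lower under HSD. Their summed signal was 18211 units under NSD and 9474 under HSD, and the median log2 fold change was −2.21 (−0.74 after normexp). Mrc1, the mannose receptor, had 134.3 and 5.49 units (−4.50), and C1qc, a complement chain, had 52.6 and 5.61 (−3.11). Apoe, the apolipoprotein and brightest of the list, had 7119 and 4337 (−0.60). The 2 markers within 1.5-fold in the main setting were C1qb and Adgre1. C1qb, another complement chain, was higher under HSD, at 50.4 and 58.4 units (0.33). Adgre1 was lower, at 6723.5 and 4252.4 units (−0.55). Id2, Batf3, Ccr9 and Cd209a were lower in the same array, and the part of macrophage RNA in their values was not tested. Of 8 monocyte markers with a probe, all above background on both arrays, 1 was higher and 2 were lower. Fcgr1, a high-affinity IgG receptor, had 304.7 units under NSD and 21.9 under HSD (−3.68), a larger difference than that of any member measured on both arrays. Ccr2, the receptor by which monocytes leave the marrow, had −0.78 and Cd14, a co-receptor for endotoxin, had 0.82. The summed signals, 118570 and 108099 units, were carried by Ly6c1 (51811 and 48478) and Itgam.

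Each of the 7 B cell markers was detected on both arrays, and 6 had a higher signal under HSD, each by less than 1.5-fold. Their median log2 fold change was 0.40 and their summed signal 6283 units under NSD and 7330 under HSD. Ebf1, a B lineage factor, had a log2 fold change of 0.55, like that of Tcf4, which B cells express too. Cd79a had 0.55 and the brightest marker, Cd79b, 0.33. The isolation on GR-1 or Ly-6G is a step that should leave B cells behind, and the part of B cell RNA in the value of Tcf4 was not tested. Of 10 T and NK cell markers, 9 were usable and Ncr1 was not well above background. Among them 1 was lower by 1.5-fold, Cd3e (−1.09), while Cd3d, the brightest, had 0.43, and the sums were 3059 and 3312 units. Of NK cell genes, Nkg7 had 676.7 and 651.0 units (0.059), and Klrb1c had 2.65 units under NSD, not well above background, and 6.03 under HSD. NK cells express Id2 too, and the part of NK cell RNA in its value was not tested.

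The size of these differences was set beside those of other genes at a like signal, as a description of the arrays and not a test. Id2 lay outside the range from the 5th to the 95th percentile of 760 genes of like signal, −0.70 to 0.77, and so did Batf3 (−0.85 to 0.84). In the groups of next lower and next higher signal the 5th percentile was −1.108 and −1.111, close to the −1.12 of Batf3. Clec9a (−0.80 to 0.91), Ccr9 (−1.04 to 0.71) and Tcf4 (−0.65 to 0.68) lay inside the ranges of their own groups of 760 genes. Of genes with a signal like Clec9a, 25.7% were past 1.5-fold in either direction, against 15.8% at the signal of Id2.

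**Figure D4:**
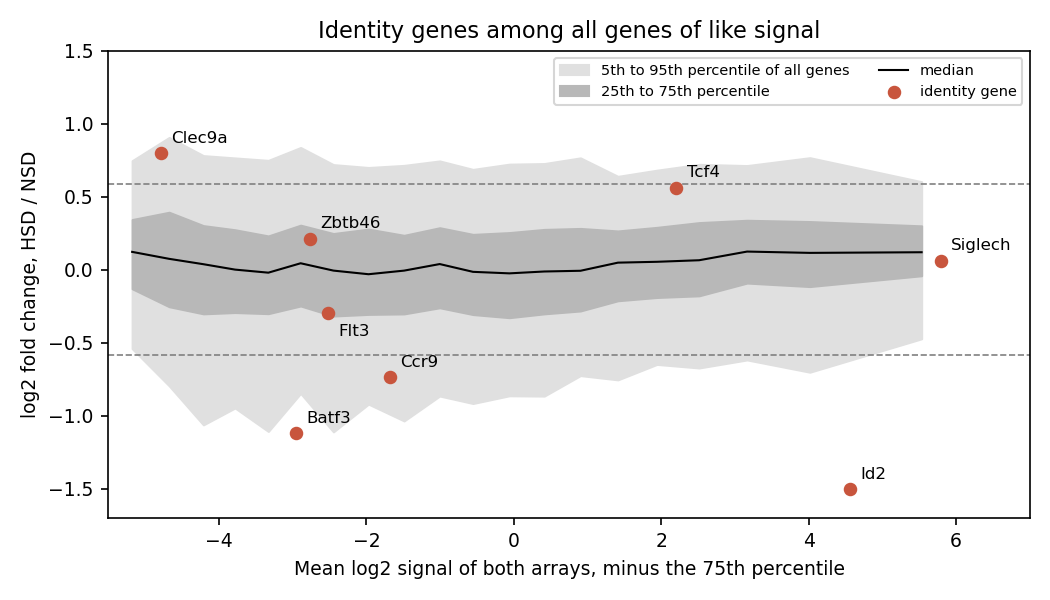
Log2 fold change (HSD over NSD) of the 8 identity genes measured on both arrays against their mean log2 signal relative to the 75th percentile. Grey bands are percentiles of all genes measured on both arrays in 20 groups of rising signal, and dashed lines mark 1.5-fold. Id2 (−1.50) and Batf3 (−1.12) lie below the range for their signal, Ccr9 and Clec9a inside it. The ranges of the groups next to that of Batf3 reach down to −1.11, close to its value.

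The 250 bases before the start site are printed for the 5 members past 1.5-fold, the promoters of the genes whose RNA differed most. They come from RefSeq (mouse assembly GRCm38.p6, the C57BL/6J genome, another strain than that of the mice), run 5′ to 3′ on the strand of the gene, and show E-boxes in capitals. The E-box (CANNTG, which reads alike on both strands) is the motif that E proteins such as E2-2 bind, and ID2 keeps E proteins from it. The windows are chr12:25096093-25096342 on the minus strand for Id2, chr1:191098164-191098413 on the plus strand for Batf3, chr8:3748985-3749234 on the minus strand for Cd209a, chr9:123766961-123767210 on the plus strand for Ccr9 and chr6:129408612-129408861 on the plus strand for Clec9a.
Id2: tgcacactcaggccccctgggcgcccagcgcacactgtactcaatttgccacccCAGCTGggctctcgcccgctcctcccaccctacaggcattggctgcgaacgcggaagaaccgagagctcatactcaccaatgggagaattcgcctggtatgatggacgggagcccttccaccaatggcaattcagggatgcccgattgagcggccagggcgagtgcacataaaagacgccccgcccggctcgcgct
Batf3: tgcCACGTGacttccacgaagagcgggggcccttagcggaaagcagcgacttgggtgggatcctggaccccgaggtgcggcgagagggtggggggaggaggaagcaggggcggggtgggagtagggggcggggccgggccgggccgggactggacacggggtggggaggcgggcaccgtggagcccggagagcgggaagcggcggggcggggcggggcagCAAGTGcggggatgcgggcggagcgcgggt
Cd209a: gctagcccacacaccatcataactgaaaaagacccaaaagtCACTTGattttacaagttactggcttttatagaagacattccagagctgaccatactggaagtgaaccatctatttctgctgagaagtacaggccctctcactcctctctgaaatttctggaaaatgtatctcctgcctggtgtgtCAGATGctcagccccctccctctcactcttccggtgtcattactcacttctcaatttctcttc
Ccr9: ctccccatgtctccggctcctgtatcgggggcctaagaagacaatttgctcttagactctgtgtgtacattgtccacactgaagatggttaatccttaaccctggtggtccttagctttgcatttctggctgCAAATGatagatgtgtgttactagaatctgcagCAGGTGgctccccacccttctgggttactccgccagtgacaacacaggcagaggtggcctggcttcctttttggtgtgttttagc
Clec9a: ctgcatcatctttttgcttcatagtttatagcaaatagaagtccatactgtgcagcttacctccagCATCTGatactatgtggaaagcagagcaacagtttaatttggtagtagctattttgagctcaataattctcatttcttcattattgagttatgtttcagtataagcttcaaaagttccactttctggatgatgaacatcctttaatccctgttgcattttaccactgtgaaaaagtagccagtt

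An E-box stood in the windows of all 9 members in the promoter table, which does not list Tcf4, and in 66.2% of 32817 windows of the same length from all genes. Id2 and Clec9a held 1 each, at base −196 and −184 counted from the start site, and Batf3, Cd209a and Ccr9 held 2 each. Siglech held 3 and Zbtb46 held 5. The ETS motif GGAAGT, a form of the element bound by PU.1 and its relatives, was searched on both strands and stood in 5 of the 9 windows (Flt3, Batf3, Xcr1, Cd209a and Siglech) and in 19.7% of all windows. The AP-1 motif TGANTCA, bound by JUN with BATF factors, stood in 1 of them, that of Zbtb46, and in 6.75% of all windows. No match of these motifs overlapped another in the 5 windows printed.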

How the data were processed

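RNA of M-MDSCs from 4T1 tumours was measured on 1 Agilent single-colour array per diet, from a pool of cells of several mice. The authors deposited scanner output of Feature Extraction 11.0.1.1, in which the processed signal and its error are intensities, corrected for background and spatial trend and not normalized between arrays. The authors also deposited a table of log2 values normalized with GeneSpring, by a method that is not given in the sources used here. This table was used as an alternative.

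Outlier spots and control spots were left out, spots of a probe were averaged on the log2 scale, and each array's 75th percentile was taken off. RefSeq transcripts (GRCm38.p6) named 27223 of 39413 probes, and the probe with the highest mean signal stood for a gene. Where a probe was well above background on 1 array only, the fold change was a bound, set by the lowest signal well above background on the other array or by the probe's signal there if that was higher. No p-value is given, and with so few arrays the precision is low. The error of a log2 fold change combines the software's errors of both arrays. SDs between spots of a probe were pooled over probes with at least 5 spots and a signal within 1 log2 unit of the member's. The members and gene lists were chosen with earlier results of these data known, from general knowledge. Genes outside the set were named as the 2 with the largest difference and the one with the brightest probe of a list. Others were named where a count of 5 or fewer needed names. Irf8, Id3, Id4, Tcf3, Ccl25, Nkg7, Klrb1c, C1qb and Adgre1 were added after their values were seen. Itgam was also named outside this rule of naming. The script that counts genes was tested on simulated data. Alternatives were limma's normexp correction (offset 50, on median spot and background intensities), 5 scalings, the deposited values, kept outlier spots, other filters and other rules for probes. Python 3.11.15, pandas 2.3.3, R 4.3.3 and limma 3.58.1 were used.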

Additional observations from a re-analysis of the deposited data

How the results depend on the processing

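The direction of Id2, Batf3, Ccr9, Cd209a, Clec9a, Flt3, Zbtb46 and Tcf4 was the same under each alternative that gave a value, and that of Siglech, near 0, was not. The counts depended on the handling of dim signals. With the normexp correction, whose offset of 50 units by its construction shrinks the fold changes of signals near or below that size, 0 members were higher and 1 was lower by 1.5-fold (Id2), where 1 and 4 had been. The log2 fold changes were then −0.41 for Batf3, −0.40 for Ccr9, −0.24 for Cd209a and 0.23 for Clec9a, and over all genes 625 were higher and 655 lower in place of 1608 and 1682. Without a filter on dim probes 2 members were higher, Xcr1 being added, as were 2903 of all genes. At 2-fold 0 were higher. Of the values of single members under the alternatives, 92 moved by less than the software's error and 6 by more, namely the 4 above, Cd209a without a filter (−3.67) and Siglech as the median of its probes (−0.18). No paired analysis was possible because each group holds 1 array. The same correction took the lower genes of the pDC list from 4 to 2 and of the BATF relatives from 2 to 1, the lower genes of maturation from 1 to 0 and the higher cDC2 genes from 2 to 1. Single spots measured each member probe, so depth of signal limits Clec9a, Cd209a and Xcr1 most.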

Other observations

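Markers of other cells that a tumour pool could hold were detected in part. All 6 carcinoma markers were above background on both arrays with summed signals of 114.4 units (NSD) and 119.7 (HSD), and 3 of them were at least 1.5-fold higher under HSD, Krt18 (log2 fold change 0.76), Epcam (0.70) and Krt8 (0.61). The brightest, Cdh1, had −0.43, and 2 of the list were higher without scaling, with the 75th percentile of probes above background on both arrays, with quantile normalization, with cyclic loess and with the deposited values. Of 5 usable fibroblast markers 1 was higher, Pdgfrb (0.59), and 2 were lower, Col3a1 (−1.09) and Dcn (−0.80), with summed signals of 167.5 and 143.9 units over the list and −0.092 for its brightest gene, Col1a1. The fibroblast counts were 0 higher and 3 lower without scaling, with the 75th percentile of probes above background on both arrays and with cyclic loess, and 0 higher and 2 lower with the deposited values. Of 5 usable endothelial markers none passed 1.5-fold, and the sums were 499.1 and 515.8 units, with Kdr at 0.28, Pecam1 at 0.24 and the brightest, Vwf, at 0.055. After normexp no gene of these 3 lists was past 1.5-fold.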
